A study of Caenorhabditis elegans with 14 samples.

Results

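The PICS complex and cofactor genes are tofu-6, pid-3 (the gene that encodes PICS-1), erh-2, tost-1, pid-1 and ife-3. All protein-coding entries of these 6 genes were taken, 13 transcript entries in all, summed per gene with sense and antisense reads kept apart; they are 6 of the 20535 protein-coding genes in the count tables. The study sequenced small RNAs of 17 to 30 nucleotides from synchronised late young adult Caenorhabditis elegans grown at 20 °C on OP50 bacteria, in 14 libraries. The untreated libraries (1 each) came from the control strain n2, tofu-6(ust94), pics-1(tm2417), erh-2(ust101), prg-1(n4503) and tost-1(ust103). The 8 TDP2 libraries came from n2, pics-1(tm2417), erh-2(ust101) and prg-1(n4503), 1 each, and from 4 tofu-6 alleles (it20, ust94, ust95 and yt2), which are the only replicates of a group. TDP2 libraries were made from RNA that was dephosphorylated with calf intestinal phosphatase and then decapped with Tobacco Decapping plus 2, which leaves a ligatable end on RNAs that carried a cap. The counts do not show which of the reads, sense or antisense, came from RNAs with a cap. Neither pid-1 nor ife-3 was mutated in any library, and tost-1 was mutated only in an untreated one. The labels do not say that libraries came from separate cultures, so every p-value measures the spread among these libraries alone, and whole worms were used, in which fewer germ cells and less RNA per germ cell cannot be told apart.

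In C. elegans, piRNAs are transcribed one by one as short capped precursors, which lose their cap and leading nucleotides before they are trimmed and loaded onto the Piwi protein PRG-1. The PICS complex (also called PETISCO) works in the germline on such precursors: TOFU-6, PICS-1 and ERH-2 form its core, and PID-1 and TOST-1 bind the core as alternative adaptors. PID-1 is the adaptor of piRNA formation, TOST-1 that of an embryonic function tied to chromosome segregation, and IFE-3 is an eIF4E protein that binds mRNA caps. Small RNAs antisense to such genes are mostly made by RNA-dependent RNA polymerases that use the mRNA as template.

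The gene tofu-6 (WBGene00017132) lies on chromosome II at 5421248 to 5422737, plus strand, in the WBcel235 annotation, with 7 exons; its last 3 exon bases are shared with F07F6.7 on the other strand. The gene pid-3 (WBGene00021270) lies on chromosome I at 2620650 to 2621859, plus strand, with 4 exons. The gene erh-2 (WBGene00009444) lies on chromosome III at 4593231 to 4593827, plus strand, with 3 exons. On the minus strand, tost-1 (WBGene00016449) lies on chromosome III at 4877526 to 4878311 with 3 exons, and pid-1 (WBGene00017549) on chromosome II at 7689681 to 7690556 with 5 exons. The gene ife-3 (WBGene00002061) lies at the end of chromosome V, at 6584 to 7828, minus strand, with 4 exons. Exon bases shared with an opposite-strand neighbour number 9 for pid-1 (F18A1.1) and 51 for ife-3 (idpp-2). Counts per gene do not show how many reads fell there and were counted for both genes. The reads of tofu-6, erh-2 and ife-3 were spread over 2, 2 and 6 transcript entries that share most of their sequence, and the sums per gene used here are free of that division.

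Assigned reads ran from 6918136 to 13469619 per library, and the 6 genes held 271 to 1270 sense reads of them, so a level of a single gene often rests on under 100 reads. Protein-coding antisense reads took 0.336% to 0.751% of the assigned reads in the untreated libraries and 4.93% (tofu-6(ust94)) to 28.3% (pics-1) in the TDP2 libraries. All 12 germline and oocyte markers had sense reads in all 14 libraries. Sperm markers differed between libraries: their summed sense reads came to 35.4 RPM in TDP2 control, 63.7 in prg-1 and 24.9 in tofu-6(ust95), with all 11 markers detected, and to 1.63 to 4.55 in the other 5 TDP2 libraries, where 2 to 5 of the 11 markers had 0 reads.

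Among the core genes without treatment, tofu-6 and pid-3 were lowest in the library of their own mutant, and erh-2 was not. Sense RPM (reads per 1000000 assigned reads) of tofu-6 in control and the tofu-6(ust94), pics-1(tm2417), erh-2(ust101), prg-1(n4503) and tost-1(ust103) mutants, in that order, was 8.34, 1.53, 8.81, 14.9, 5.52 and 13.6. For pid-3 it was 5.23, 13.8, 1.52, 11.8, 5.12 and 10.7 in the same order. The lowest values, 1.53 and 1.52, each fell in the mutant of that gene, apart from the other 5 libraries. For erh-2, the smallest of the 6 genes by transcript length, sense RPM was 1.27, 4.08, 3.32, 1.67, 1.77 and 4.19. The erh-2 mutant lay between control and prg-1 here, below the other 3 mutants.

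Of the adaptors and the cap-binding protein, tost-1 also was lowest in its own mutant, and pid-1 had few reads in every untreated library. Sense RPM of tost-1 in the same order was 4.24, 7.30, 6.82, 8.25, 3.94 and 1.01. That of pid-1 was 1.56, 1.10, 3.41, 2.15, 1.58 and 1.88, on 11 to 36 reads. Sense RPM of ife-3 was 17.7, 42.4, 36.8, 39.5, 12.8 and 36.0. Control and prg-1 were the low pair for ife-3, and the tofu-6, pics-1, erh-2 and tost-1 mutants lay at more than 2-fold the control.

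Per kilobase of transcript, ife-3 ranked 1 among the 6 genes in all 6 untreated libraries, with a median of 32.6 RPM per kb and a lowest value of 11.5 in prg-1. The medians of tost-1 (8.91, 1.63 to 13.3), pid-3 (7.53, 1.43 to 13.0), tofu-6 (7.10, 1.27 to 12.4) and erh-2 (5.03, 2.52 to 8.28) followed. The ranges of those 4 genes overlapped, and the low ends of tost-1, pid-3 and tofu-6 came from the library of their own mutant. Within single libraries erh-2 ranked 4 or 5, while tofu-6, pid-3 and tost-1 each ranked from 2 to 6. The gene pid-1 had the lowest median, 2.51 RPM per kb (1.60 to 4.96), and was ranked 5 or 6 in every untreated library.

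**Figure D1:**
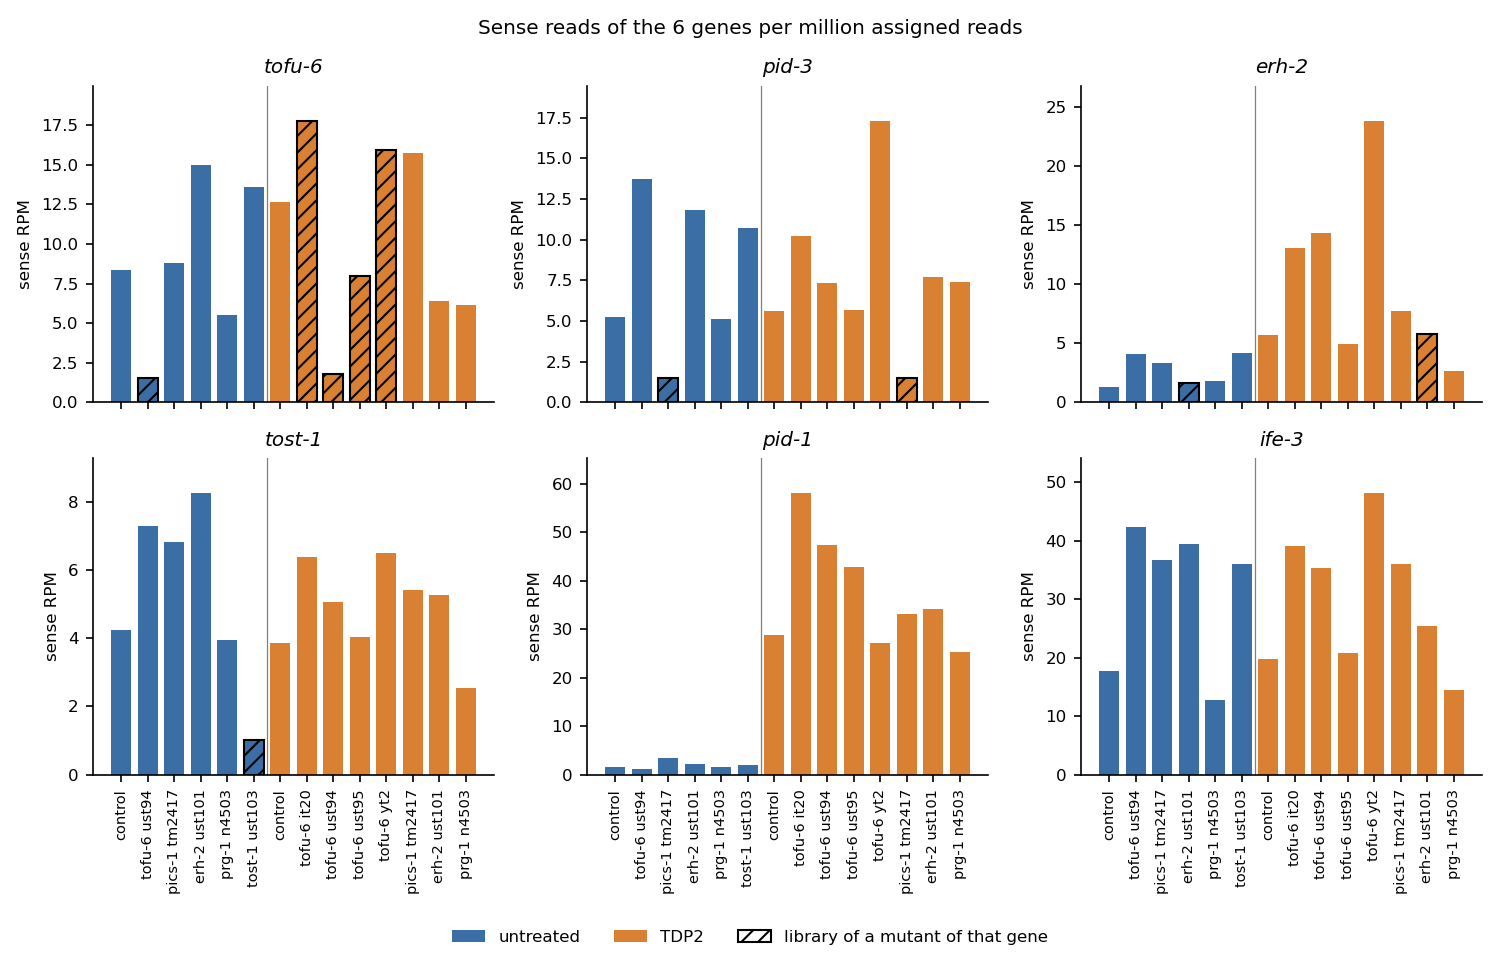
Sense reads per 1000000 assigned reads (vertical axes, each from 0) of the 6 genes in the 6 untreated (blue) and 8 TDP2 (orange) libraries, 1 bar a library; hatched bars are libraries of a mutant of the gene shown. The bars of pid-1 reach at most 3.41 RPM without treatment and start at 25.3 RPM with TDP2.

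Because library totals differ in what else they hold, each mutated gene was also read as its share of the sense reads of the 6 genes together, with exact Clopper-Pearson 95% intervals, which cover counting error only. In the untreated libraries tofu-6 took 2.18% (1.30 to 3.42) in tofu-6(ust94) and 14.5% to 21.8% in the other 5. The share of pid-3 was 2.50% (1.44 to 4.03) in pics-1 and 13.7% to 19.6% elsewhere. That of tost-1 was 1.50% (0.606 to 3.07) in the tost-1 mutant and 10.4% to 12.8% elsewhere. For these 3 genes the mutant's interval stayed below the lowest of the other libraries' values. The share of erh-2 was 2.14% (1.17 to 3.56) in its mutant and 3.32% to 6.22% elsewhere, the lowest of the 6 libraries, but with an interval that overlapped that of control (1.53 to 6.21). Each of these is 1 library of a mutant, with no replicate, and counts per gene do not show which part of the gene the remaining reads came from.

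With TDP2 the same shares divided the alleles and the genes. Here pid-1 took 19.5% to 49.8% of the summed sense reads in the tofu-6 alleles and 37.7% in control, so the other shares also move with pid-1. The share of pid-3 was 1.52% (0.789 to 2.65) in pics-1 and 6.57% to 12.7% in the other 7 libraries, so it was low in both pics-1 libraries. The share of tofu-6 was 12.3%, 1.63%, 9.22% and 11.5% in it20, ust94, ust95 and yt2, and 7.54% to 16.6% in the 4 other genotypes. Among the tofu-6 alleles ust94 alone was low, in its TDP2 library as in its untreated library, and the other 3 lay within the range of strains with an intact tofu-6 gene. The share of erh-2 in its own TDP2 library was 6.84%, inside the 4.55% to 17.2% of the other 7.

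**Figure D2:**
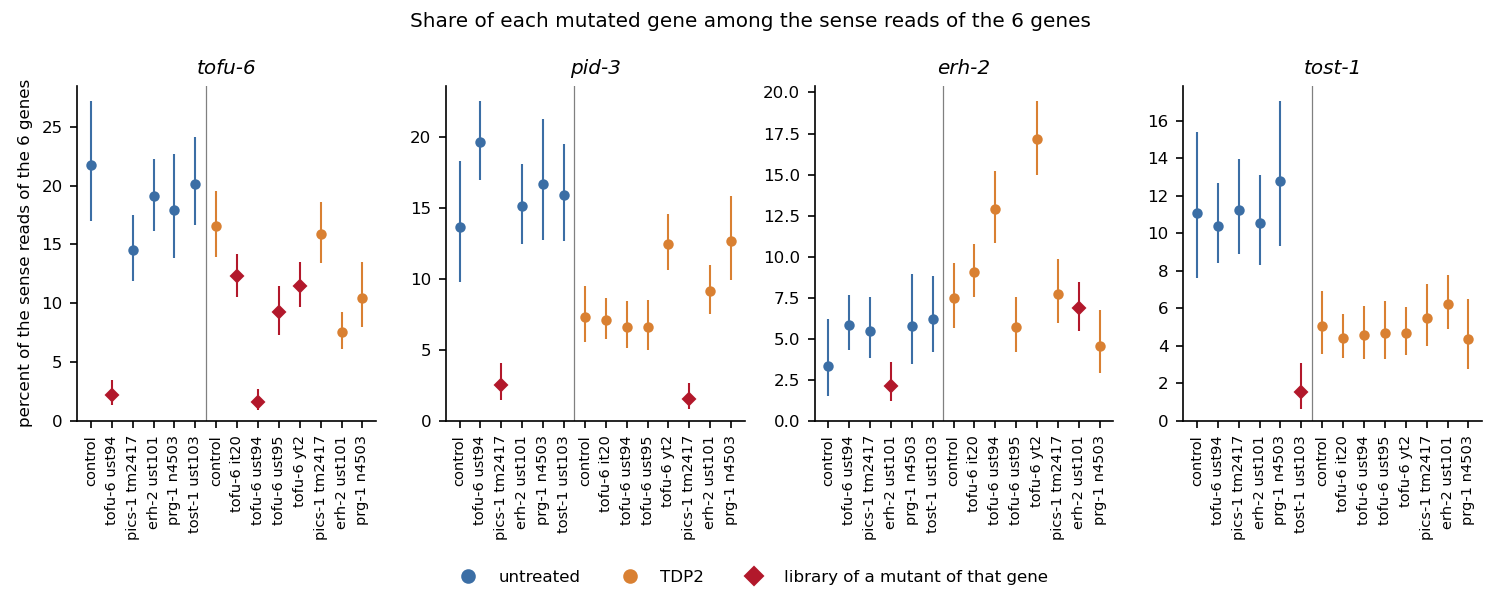
Share (percent, vertical axes from 0) of tofu-6, pid-3, erh-2 and tost-1 among the sense reads of the 6 genes in each library, with exact 95% counting intervals; red diamonds are libraries of a mutant of the gene shown. Red diamonds lie apart from the rest for pid-3 (2.50% and 1.52%), for tost-1 without treatment (1.50%) and for the tofu-6 allele ust94 (2.18% and 1.63%), not for the other 3 tofu-6 alleles.

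Each untreated mutant library was set against the single control library made without TDP2, so no p-value exists and the comparisons share that control. A gene counted as past 2-fold at a ratio of at least 2 or at most 0.5 and with at least 10 reads in 1 of the libraries. In tofu-6(ust94) 4 of the 6 genes were past 2-fold: tofu-6 itself was below control, and pid-3 (ratio 2.63, 95% counting interval 1.83 to 3.87), erh-2 (3.20, 1.55 to 7.42) and ife-3 (2.40, 1.97 to 2.94) were above it. Over all protein-coding sense features 31.7% were past 2-fold above control there and 3.70% below, with a median ratio of 1.70. In pics-1 the count was again 4, with pid-3 below control and erh-2 (2.61, 1.23 to 6.16), pid-1 (2.19, 1.09 to 4.78) and ife-3 (2.08, 1.70 to 2.57) above, against 34.8% higher and 4.61% lower over all and a median of 1.74.

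In the erh-2 mutant pid-3 (2.26, 1.54 to 3.40) and ife-3 (2.23, 1.81 to 2.77) were past 2-fold above control, against 21.9% of all sense features higher, 6.83% lower and a median ratio of 1.54. In tost-1 the genes above control were pid-3 (2.04, 1.36 to 3.12), erh-2 (3.29, 1.52 to 7.91) and ife-3 (2.04, 1.64 to 2.55), with tost-1 itself below; over all sense features 15.9% lay above and 6.80% below, and the median ratio was 1.41. In prg-1 none of the 6 genes passed 2-fold, against 7.13% higher and 12.0% lower over all; the ratios ran from 0.661 (tofu-6) to 1.39 (erh-2). The summed sense reads of the 12 germline and oocyte markers moved along: 628 RPM in control, 502 in prg-1, and 1174 to 1306 in the other 4 mutants. Those of the 10 somatic markers did so too, with 3229 RPM in control, 2621 in prg-1 and 5288 to 6798 in the other 4, and the part of neither list in these ratios was tested. The direction of most of these ratios depended on the scaling. Per microRNA read, the ratios above 2 in tofu-6(ust94), pics-1 and erh-2 came to 0.712 (ife-3 in tofu-6(ust94)) to 1.01 (erh-2 in pics-1), near or below control, and prg-1 had 2 genes past 2-fold, tofu-6 (0.438) and ife-3 (0.480), both lower. The background turned as well: the median ratio of coding sense features became 0.506 in tofu-6(ust94), with 160 of 8412 past 2-fold above and 4097 below. It became 0.675 in pics-1 (231 of 8172 above and 1889 below) and 0.681 in the erh-2 mutant (140 of 7539 and 1888). In prg-1 it was 0.545, with 317 of 7597 above and 3083 below, so 2 of 6 genes lower was near the background. In the tost-1 mutant the same 4 genes passed under either scaling, with 2.09 for pid-3, 3.37 for erh-2 and 2.08 for ife-3 per microRNA read beside a median of 1.44. MicroRNA reads took 3.93% of assigned reads there and 4.01% in control, so this scaling could hardly move the ratios. Per read outside structural RNA and ncRNA antisense (chosen later) 2 genes passed, and the median was 1.22.

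With TDP2, sense reads of pid-1 rose in all 5 strains that had both kinds of library. Sense RPM in TDP2 control, tofu-6 it20, ust94, ust95 and yt2, pics-1, erh-2 and prg-1 was 28.8, 58.0, 47.3, 42.9, 27.1, 33.1, 34.1 and 25.3, on 219 to 510 reads. All 8 values lie above the highest untreated value of 3.41. Within a strain the ratio of TDP2 to untreated RPM was 18.5 in control (95% counting interval 10.2 to 37.5). It was lowest in the pics-1 mutant, at 9.69 (6.82 to 14.1), and highest in tofu-6(ust94), at 42.9 (24.8 to 81.3), while the erh-2 mutant gave 15.8 (9.91 to 27.0) and the prg-1 mutant 16.0 (9.65 to 28.5). The log2 change was 3.68 ± 0.37 (SE; edgeR quasi-likelihood test with strain as a block, 10 libraries, adjusted p = 0.000101). In the TMM-scaled fit 10.2% of the 10520 protein-coding sense features tested were called higher and 14.4% lower, with a median log2 change of −0.32, and pid-1 ranked 222 among them by log2 change.

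The size and direction of this change depended on the scaling of libraries, which shifts all genes alike. Scaled to microRNA reads the log2 change of pid-1 was 5.93 beside a median of 1.93 over coding sense features, of which 4158 were then called higher and 0 lower. Scaled to antisense coding reads it was −0.19 beside a median of −4.14, with 19 called higher and 9568 lower. With TDP2 the neighbours of pid-1 had fewer reads than it. Sense reads of nhx-2, which encodes a sodium-proton exchanger and lies 155 nucleotides from pid-1 on the same strand, numbered 22 to 62 with TDP2 and 10 to 44 without. F18A1.1, which meets pid-1 from the other strand, had at most 5 reads on either strand in any library. Per kilobase, pid-1 ranked 1 among the 6 genes in 7 of the 8 TDP2 libraries, with a median of 48.8 RPM per kb, and ife-3 ranked 2 in all 8; in yt2 erh-2 ranked 1.

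The other 5 genes changed less on the sense strand. Sense RPM of erh-2 in the same order of TDP2 libraries was 5.69, 13.1, 14.3, 4.90, 23.8, 7.69, 5.79 and 2.65. It was above the untreated library in 5 of 5 strains, by ratios of 1.50 (prg-1) to 4.47 (control), and the log2 change was 1.04 ± 0.38 (edgeR, adjusted p = 0.0355). This call was lost when any of the 5 strains was left out (adjusted p 0.0524 to 0.181) and without a filter on low counts (0.0745). Of its paralogue erh-1, tested as a related family gene, sense reads rose by 1.52 ± 0.40 (edgeR, adjusted p = 0.00728).

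Sense RPM of tost-1 with TDP2 was 3.87, 6.37, 5.06, 4.03, 6.50, 5.42, 5.27 and 2.54. It fell by 0.92 ± 0.32 on the log2 scale (edgeR, adjusted p = 0.0292) and was lower than untreated in all 5 strains. The call was lost without the control, tofu-6(ust94), pics-1 or erh-2 pair (adjusted p 0.0515 to 0.0788), without the TMM factors (0.240) and without the filter (0.164). Scaled to microRNA reads the change was 1.34, the other direction.

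The genes tofu-6, pid-3 and ife-3 did not pass the test on the sense strand. Sense RPM of tofu-6 with TDP2 was 12.7, 17.8, 1.81, 7.95, 15.9, 15.8, 6.39 and 6.11, above the untreated RPM in 4 of 5 strains, with a TMM-scaled log2 change of −0.34 ± 0.35 (edgeR, adjusted p = 0.441). That of pid-3 was 5.59, 10.2, 7.35, 5.66, 17.3, 1.51, 7.72 and 7.38, with −0.65 ± 0.34 (adjusted p = 0.127). That of ife-3 was 19.8, 39.0, 35.3, 20.8, 48.1, 36.0, 25.4 and 14.4, with −0.59 ± 0.27 (adjusted p = 0.0864). The prg-1 pair weighed on the latter genes: without it pid-3 gave −1.31 (edgeR, adjusted p = 0.0218) and ife-3 gave −1.13 (0.0189). Germline and oocyte markers moved with TDP2 on the same strand, 8 of 12 lower and 1 higher, with a median log2 change of −0.82. Summed sense RPM of the somatic markers was lower with TDP2 in all 5 strains too. It went from 3229 to 2946 in control, 2621 to 2438 in prg-1 and 6798 to 3688 in tofu-6(ust94). In pics-1 it went from 6730 to 3923 and in the erh-2 mutant from 6579 to 3697. The part of neither list in the sense values was tested.

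**Figure D3:**
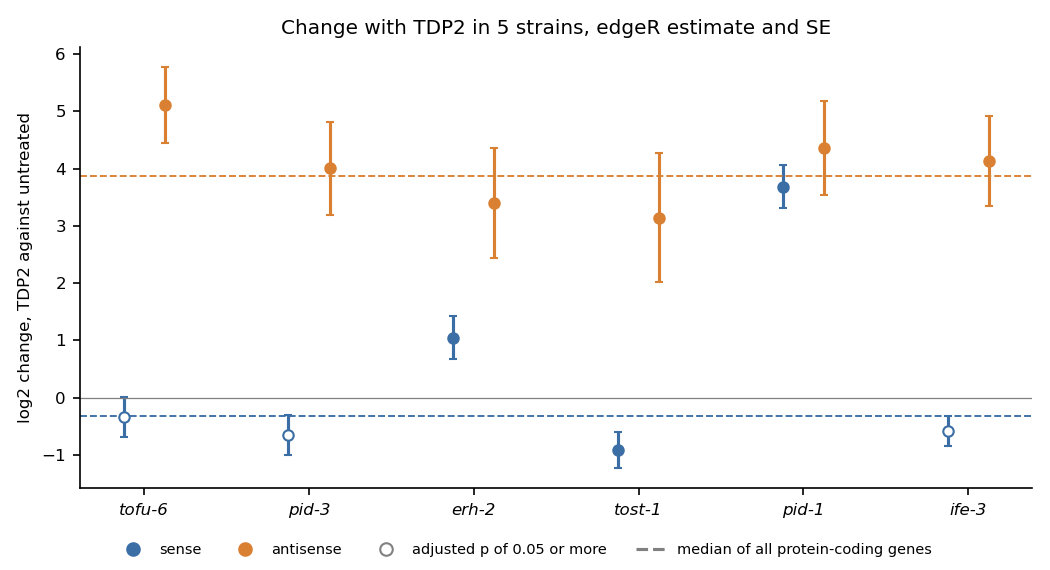
Log2 change of sense (blue) and antisense (orange) reads of the 6 genes with TDP2 against no treatment over 5 strains, edgeR estimate with its SE; open points missed the adjusted p threshold of 0.05 and dashed lines are medians of all protein-coding features of that strand. The antisense points lie around their median of 3.88, and on the sense strand pid-1 (3.68) lies far above its median of −0.32.

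Antisense reads of all 6 genes rose with TDP2. In the 6 untreated libraries each gene had 0 to 7 antisense reads, and a count of 0 allows up to 0.255 to 0.434 RPM at these depths. With TDP2 the log2 change was 5.11 ± 0.67 for tofu-6, 4.36 ± 0.82 for pid-1, 4.13 ± 0.78 for ife-3, 4.01 ± 0.81 for pid-3, 3.40 ± 0.96 for erh-2 and 3.14 ± 1.13 for tost-1 (edgeR, adjusted p 0.000192 to 0.0341). All 6 were called higher, and so were 90.6% of the 7965 coding antisense features tested, while 0.59% were called lower, and their median was 3.88 beside 4.07 for the 6 genes. The count is therefore close to the background. The rise was seen in 5 of 5 strains for tofu-6, pid-3, pid-1 and ife-3 and in 4 of 5 for erh-2 and tost-1, the exception being the erh-2 mutant for both. The tost-1 call, on 3 to 21 reads a library, was lost without the control, pics-1 or prg-1 pair (adjusted p 0.101, 0.151 and 0.0689). Scaled to antisense coding reads none of the 6 passed, erh-2 (−0.40) and tost-1 (−0.40) turned, and the others lay between 0.44 and 1.20.

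Antisense RPM of tofu-6 in the order control, it20, ust94, ust95, yt2, pics-1, erh-2 and prg-1 was 8.38, 11.8, 1.45, 2.61, 48.9, 20.9, 0.817 and 6.34. That of erh-2 was 6.77, 13.7, 0.964, 2.40, 33.7, 12.5, 0.297 and 5.88. Both genes were highest in yt2 and lowest in the erh-2 mutant, 59.9-fold and 113.5-fold apart. That of pid-3 was 9.24, 5.35, 1.69, 6.75, 16.6, 2.40, 4.45 and 8.07, with pics-1 among the lowest libraries instead of among the highest.

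Antisense RPM of tost-1 was 2.26, 0.910, 0.361, 0.436, 2.09, 2.52, 0.371 and 0.577, the lowest of the 6 genes in most libraries. That of pid-1 was 5.48, 1.82, 0.602, 2.40, 3.31, 3.78, 1.19 and 1.96. That of ife-3 was 13.3, 4.89, 1.69, 5.34, 15.1, 14.9, 2.52 and 6.11. These 3 genes were low in ust94 and in the erh-2 mutant and high in control, yt2 and pics-1. All coding antisense reads together took 4.93% of assigned reads in ust94, 5.46% in prg-1, 7.33% in the erh-2 mutant, 10.7% in it20, 15.3% in control, 15.5% in ust95, 27.1% in yt2 and 28.3% in pics-1. The order was not the same: prg-1 had a lower share than the erh-2 mutant but higher RPM of all 3 genes, and ust95 a slightly higher share than control but lower RPM of all 3.

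**Figure D4:**
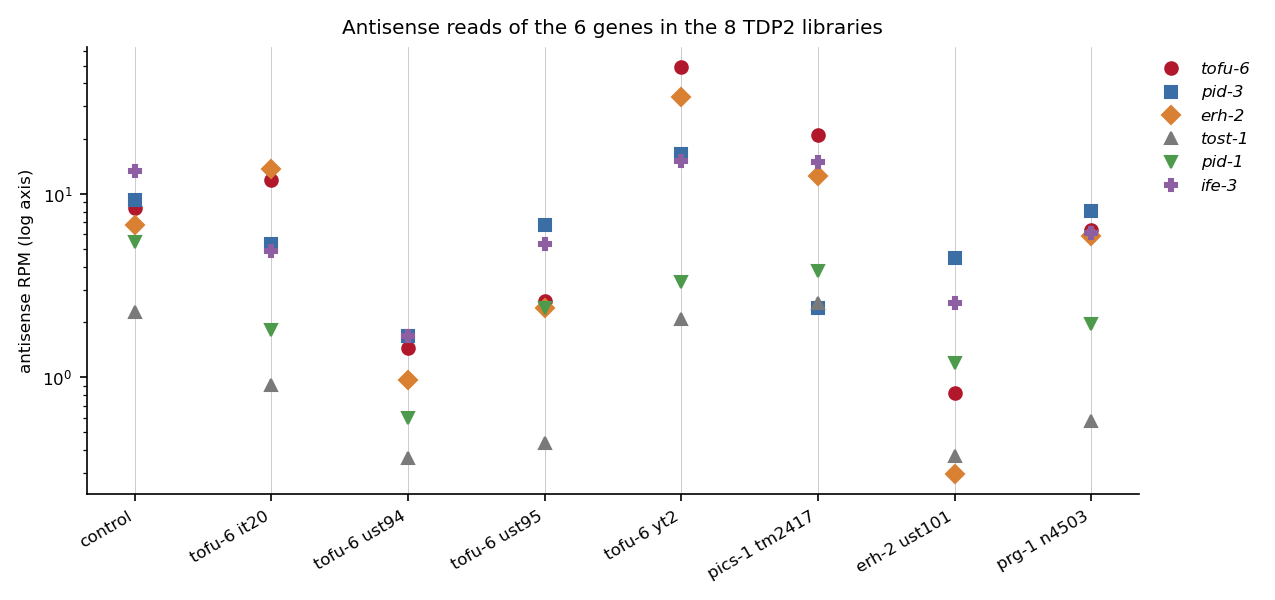
Antisense reads per 1000000 assigned reads (log axis) of the 6 genes in the 8 TDP2 libraries, 1 point a gene and library. Points of tofu-6 and erh-2 stay close to each other from 0.297 and 0.817 RPM in the erh-2 mutant to 33.7 and 48.9 RPM in yt2, while pid-3 drops below them in pics-1 (2.40 RPM).

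Antisense reads of the mutated gene were few in pics-1 and erh-2. The share of pid-3 among the antisense reads of the 6 genes was 4.20% in pics-1 (19 reads) and 13.8% to 46.2% in the other 7 TDP2 libraries. The share of erh-2 was 3.08% in the erh-2 mutant (4 reads) and 12.0% to 35.5% elsewhere. In neither case did the mutant's library overlap the rest. The adjoining genes did have antisense reads in these libraries: Y23H5A.2 and spe-47, 98 and 220 nucleotides from pid-3, had 845 and 311 in pics-1 (312 and 117 in control), and smc-4, a condensin subunit gene 107 nucleotides from erh-2, had 600 in the erh-2 mutant (898 in control), while apc-11 on its other side had 6 (15 in control). The share of tofu-6 was 13.1% to 40.9% in the 4 tofu-6 alleles, across the 8.46% to 36.7% of the other 4 libraries.

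The genotype comparisons with TDP2 used a fit of all 8 libraries in 5 genotype groups, in which the tofu-6 alleles alone give the spread, and all of them share the control library. None of the 12 gene strands passed in tofu-6, pics-1, erh-2 or prg-1, by edgeR or by DESeq2. Of the 10757 coding sense features tested, edgeR called 0% higher and 0.0744% lower in tofu-6, 0% and 0.0372% in pics-1, 0.0651% and 0.121% in the erh-2 mutant, and 0.0558% and 0.493% in the prg-1 mutant. Of the 8653 coding antisense features it called 0.162% higher and 0.127% lower in tofu-6, 0.0116% and 0.0116% in pics-1, 0% and 0.0231% in the erh-2 mutant, and 0.0809% and 12.1% in the prg-1 mutant. These calls over all genes moved with the scaling: per microRNA read 4778 coding sense features were called higher in the erh-2 mutant instead of 7, and the 1047 antisense features lower in prg-1 became 1, or 0 per antisense coding read. The lowest values in the erh-2 mutant were erh-2 antisense (log2 change −4.03 ± 1.44) and tofu-6 antisense (−2.91 ± 1.32), neither of which passed. The sense values there ran from −0.55 (tofu-6) to 0.90 (pid-3), with a median of 0.74 beside 1.06 for all coding sense features. All 6 antisense values were below control there, from −0.62 for pid-3, with a median of −2.05 beside −1.38 for all coding antisense features.

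In pics-1 the lowest of the 12 values were those of pid-3, −2.23 ± 1.29 sense and −2.29 ± 1.26 antisense (edgeR, adjusted p = 1.00 for each), and the rest ran from −0.89 to 0.96. In the tofu-6 alleles the values ran from −0.31 (tofu-6) to 1.27 (erh-2) sense, with a median of 0.72 beside 0.81 over all coding sense features, and from −1.54 (pid-1) to 0.74 (tofu-6) antisense, with an antisense median of −0.79 beside −0.64 over all coding antisense features. In prg-1 they ran from −0.66 to 0.84 sense and from −1.51 to 0.24 antisense, with an antisense median of −0.32 beside −0.75 over all. With SEs of 0.88 to 1.63 these comparisons cannot separate a 2-fold difference from none. Sperm markers were lower in the mutants other than prg-1 and tofu-6(ust95), as given above. Summed sense reads of the germline and oocyte markers were 520 RPM in control, 417 in prg-1, 696 in ust95 and 856 to 1116 in the other 5 TDP2 libraries. Those of the somatic markers were 2946 RPM in control, 2438 in prg-1, 2228 in ust95 and 3688 to 5566 in the other 5. The part of none of these lists in these values was tested. A sperm protein gene, smz-1, was the only gene of the marker lists called, in erh-2 (sense, −6.42, edgeR, adjusted p = 0.0366).

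The antisense levels of tofu-6 and erh-2 had each other as the most alike pattern among 8652 candidate genes over the 8 TDP2 libraries (log2(CPM + 1), Pearson r = 0.98, Spearman rho = 0.976). The points share their libraries, and with them depth and the share of antisense reads; r was 0.973 without yt2, the lowest value with any library left out. The next most alike genes were C25A11.2 for tofu-6 and rgs-8.1 for erh-2 (r = 0.958 and 0.961); rgs-8.1 is the name of 2 gene entries that may share reads. Among the other pairs of the 6 genes on that strand, r was highest for pid-1 and ife-3 (0.901), tost-1 and ife-3 (0.891) and tofu-6 and ife-3 (0.803). The pairs with pid-3 had r of 0.170 (tost-1) to 0.484 (pid-1), and that of tofu-6 and pid-3 went from 0.346 to 0.0343 without yt2. The gene most like pid-3 antisense, F13G3.10, reached r = 0.836.

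On the sense strand erh-2 and ife-3 were the most alike pair of the 6 genes (r = 0.918), and tost-1 and ife-3 followed (0.897). The genes most like each over 10756 candidates were fdgt-2 for pid-1 (r = 0.983), cpg-1, an eggshell protein gene, for ife-3 (0.983), mcm-5, a replication helicase subunit gene, for tost-1 (0.985), C07D8.6 for erh-2 (0.977), prhg-1 for pid-3 (0.941) and F23A7.4 for tofu-6 (0.898). Antisense, the most alike genes were rpl-36.A for pid-1 (0.992), C24D10.6 for ife-3 (0.993) and toca-1 for tost-1 (0.978). These values are descriptions over 8 libraries.

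By RPM, the 4 tofu-6 alleles differed most in the antisense reads of tofu-6 and erh-2. Antisense RPM of tofu-6 averaged 16.2 ± 22.3 (SD, n = 4 alleles) beside 8.38 in control, and that of erh-2 12.7 ± 15.1 beside 6.77, with the highest allele 33.9-fold and 35.0-fold above the lowest. The spread of pid-1 antisense (2.03 ± 1.13) and ife-3 antisense (6.75 ± 5.79) was smaller, 5.50-fold and 8.94-fold. Relative to all coding antisense reads the 4 alleles still ranged 10.7-fold for tofu-6 and 8.23-fold for erh-2, against 1.39-fold for pid-1 and 1.63-fold for ife-3. Sense reads of tofu-6 ranged 9.83-fold by RPM and 11.1-fold relative to all coding sense reads, with ust94 the lowest allele. Without yt2 the log2 change of the tofu-6 group against control turned from 0.74 to −0.61 for tofu-6 antisense and from 0.73 to −0.21 for erh-2 antisense, so yt2 set the direction of both. Without ust94 the change of tofu-6 sense turned from −0.31 to 0.02.

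In yt2 the strand opposite to tofu-6 carried more reads than in the other libraries at 3 adjoining genes; the neighbours were singled out after their values were seen. Its antisense reads numbered 399 for tofu-6 (11 to 166 in the other 7 TDP2 libraries) and 179 for EEED8.15, 155 nucleotides upstream (0 to 11 elsewhere). On the same genome strand, F07F6.7, which meets the far end of tofu-6 and is encoded on that strand, had 516 sense reads (0 to 8 elsewhere). Of the 19 coding genes within 20 kb on either side, these 3 had more opposite-strand reads in yt2 than in any other TDP2 library. The genes beyond them did not: EEED8.2 had 17 (0 to 47 elsewhere) and F07F6.8 52 (33 to 64). On the strand of tofu-6 the gene had 130 reads, inside the 15 to 156 of the others. Both neighbours were highest in yt2 there too, F07F6.7 with 98 (at most 63 elsewhere) and EEED8.15 with 40 (at most 34). So, on few reads, were EEED8.18 with 10 (at most 5), EEED8.4 with 16 (at most 15) and EEED8.13 with 9 (at most 8). For erh-2 antisense, also highest in yt2 with 275 reads, smc-4 next to it had 1083 antisense reads beside 1038 in pics-1.

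**Figure D5:**
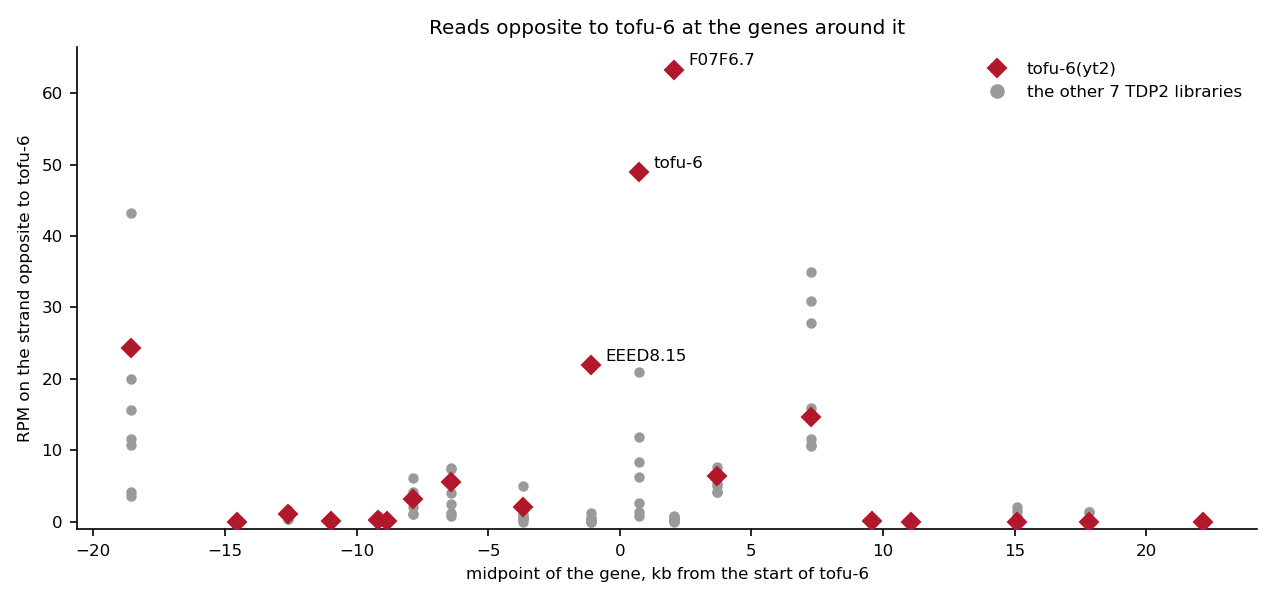
Reads per 1000000 assigned reads on the strand opposite to tofu-6 (vertical axis) at coding genes within 20 kb, placed by the distance of their midpoint from the start of tofu-6 (kb), in yt2 (red diamonds) and the other 7 TDP2 libraries (grey). EEED8.15 (21.9 RPM), tofu-6 (48.9) and F07F6.7 (63.3) stand above the grey points and the next genes on either side do not.

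The other genes of the piRNA pathway also rose on the antisense strand with TDP2, as most coding genes did, and none was called higher on the sense strand. Of the 15 other piRNA pathway genes found, 14 were tested on each strand. Antisense, 14 of 14 rose, close to the 90.6% of all coding antisense features, with a median of 4.07 beside 3.88, from 3.35 for prde-1, which works in piRNA transcription, to 4.63 for henn-1, the piRNA methyltransferase. Among them were parn-1, the trimming nuclease (4.41), and tofu-1, tofu-2, slfl-3 and slfl-4, which encode the enzyme that cleaves precursors (3.68 to 4.36). On the sense strand 0 rose and 2 fell, where 10.2% of all coding sense features rose and 14.4% fell. The 2 were prg-1 (−1.25 ± 0.27, edgeR, adjusted p = 0.00229) and snpc-4, a piRNA transcription factor gene (−1.05 ± 0.27, adjusted p = 0.00717), and the median over the 14 was −0.46. The paralogues of ife-3 were mixed: ife-5 (5.03) and ife-1 (2.05) rose antisense and ife-2 fell on the sense strand (−0.98, edgeR, adjusted p = 0.0477). No gene of these lists passed in the 4 genotype comparisons.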

How the data were processed

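Per the labels, 14 small RNA libraries were grouped by strain and by TDP2 treatment. For each library the authors deposited counts of reads, as whole numbers, for every transcript and piRNA on each strand. The submitters' processing notes name Bowtie2; which version and build it ran with, how multiply matching reads were handled and what counted them is not given in the sources used here. Counts of transcripts were summed per gene, class and strand, with names from the WBcel235 annotation. Blank cells were taken as 0, and 3 to 27 reads per library in entries without a class were left out. Levels are RPM (reads per 1000000 assigned).

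Tests used edgeR 4.0.16 (glmQLFit and glmQLFTest, TMM, R 4.3.3) on features with at least 10 reads in some library and 30 in all, two-sided, Benjamini-Hochberg adjusted over all features, threshold 0.05. Genotypes with TDP2 were fitted over 8 libraries (22549 features, 3 residual degrees of freedom, median biological coefficient of variation 0.561, infinite prior degrees of freedom), so the spread of the tofu-6 alleles stands in for that of the single libraries. TDP2 against untreated was fitted over 10 libraries (21837 features, 4 residual degrees of freedom, 0.476) with strain as the block, since the labels give each strain 1 library of each kind. The fits were tested on simulated data. DESeq2 1.42.0, other scalings and filters, and libraries left out were alternatives. Untreated ratios have exact conditional intervals. Named were all 6 genes, listed pathway and family genes past the test, and the genes with the highest r. Members and lists were chosen with earlier results of these data known.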

Additional observations from a re-analysis of the deposited data

Results flagged for a closer look

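F07F6.7, the neighbour that meets tofu-6 from the other strand and is not among the complex genes, had 63.28 sense RPM in the TDP2 library of tofu-6(yt2), on 516 reads, above the 0.859 RPM of TDP2 control. It drew attention because it is a signal outside the 6 genes that exceeds the control. Among the 4 tofu-6 alleles, none of the 12 gene strands had a value whose gap to the nearest allele exceeded Dixon's 95% critical value for 4 samples.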

How the results depend on the processing

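The number of gene strands called with TDP2 was 9 of 12, where 9380 of all 21837 features were called higher and 2678 lower. It was 5 when libraries were scaled to antisense coding reads (chosen after seeing the data). Those 5 were sense strands called lower, from −2.79 (erh-2) to −4.76 (tost-1), as were 9568 of 10520 coding sense features. Of them only tost-1 was also called lower in the TMM-scaled fit. Otherwise the number was 7 to 9: 8 with DESeq2 size factors, with microRNA scaling and with library sizes alone (also chosen later), 7 without a filter, 9 with DESeq2 and 9 without strain as a replicate block. Leaving out 1 strain gave 6 to 9. The genotype counts with TDP2 were 0 under all alternatives, although the calls over all genes were not stable. Without treatment, the count past 2-fold in tost-1 (4) was 4 per microRNA read and 2 per read outside structural RNA and ncRNA antisense (chosen later). Under the same scalings it was 2 and 0 in prg-1 (0), 0 and 0 in the erh-2 mutant (2), 2 and 1 in pics-1 (4), and 2 and 2 in tofu-6(ust94) (4). Of all coding sense features, 3083 of 7597 were past 2-fold below control in prg-1 per microRNA read.

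Directions turned as follows. Per microRNA read the TDP2 change was 1.89 for tofu-6, 1.62 for pid-3, 1.34 for tost-1 and 1.69 for ife-3 sense; with library sizes alone tofu-6 sense gave 0.13. Per antisense coding read, erh-2 sense gave −2.79 and antisense −0.40, tost-1 antisense −0.40 and pid-1 sense −0.19. By construction these scalings move all features: the median of all features was 2.91 and −3.07 beside 0.68. In the erh-2 mutant with TDP2, microRNA scaling gave 0.0064 for tofu-6 and 0.96 for ife-3 antisense. In the tofu-6 alleles tofu-6 sense was 1.63 per microRNA read. With 1 allele left out it ranged from −0.78 to 0.021 (without ust94), tofu-6 antisense from −0.61 (without yt2) to 1.10, and erh-2 antisense from −0.21 (without yt2) to 1.10. Untreated ratios per microRNA read were 0.781 for pid-3, 0.951 for erh-2 and 0.712 for ife-3 in tofu-6(ust94), 0.849 for pid-1 and 0.805 for ife-3 in pics-1, and 0.998 for pid-3 and 0.985 for ife-3 in erh-2. The cause was not tested for the libraries left out. Of 315 single values recomputed, 244 kept direction and call. Depth limits the adaptors, and not them alone: pid-1 sense without treatment and tost-1 antisense rest on at most 36 and 21 reads a library. Without treatment erh-2 sense rests on 9 to 48 reads, and the antisense strand of every member on at most 7.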
